A study of Mus musculus with 3 samples.

Results

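The S100 genes encode small calcium-binding proteins, and 8 of them are described here: S100a1, S100a4, S100a6, S100a8, S100a9, S100a10, S100a11 and S100a13. They were chosen by symbol, without use of any measured value, and each symbol named exactly 1 of the 27998 rows of the gene table. The study profiled single cells of the adult mouse brain around the loss and early return of microglia, the resident macrophages of the brain. Female C57BL6J mice aged 5 months gave whole brain without the cerebellum. It was digested, freed of myelin and sorted by flow cytometry for Cd11b, an integrin on microglia and further myeloid cells, and single-cell 3′ libraries were made from the sorted cells. The label Ctrl stands for 1 naive mouse, and D0 for 2 pooled mice fed PLX5622, an inhibitor of the receptor Csf1r on which microglia depend, in a diet of 1200 mg/kg for 14 days. The label D2 stands for 1 mouse that had the drug diet for 14 days and then 2 days of ordinary food.

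All cells were deposited in a single matrix. Their barcodes end in 1, 2 or 3, and nothing in the labels or files ties an ending to Ctrl, D0 or D2, so no comparison between the 3 treatments was made. Cells are called library 1, 2 or 3 after that ending, and no barcode sequence occurred under more than 1 ending. With 1 library of each kind there is no replicate, so values carry 95% intervals for counting error only, no p-value is given, and a difference between libraries has no replicate check.

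An S100 protein is a small dimer with a pair of EF-hand calcium sites in each chain. On binding calcium most members expose a surface that docks onto partner proteins such as annexins and myosin, and some are also released from cells. S100a8 and S100a9 form calprotectin, an abundant cytosolic complex of neutrophils that sequesters zinc and manganese and can act on Tlr4 and Ager once released. S100a10 pairs with Anxa2 at the plasma membrane, S100a4 binds non-muscle myosin, and S100a13 takes part in the non-classical release of Fgf1 and Il1a. In the resting brain the family is best known for S100b, made by astrocytes.

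All 8 members lie on mouse chromosome 3 (GRCm38, GENCODE vM21). A first group runs from S100a1 at chr3:90511034-90514392, on the minus strand, to S100a9 at chr3:90692632-90695721, also on the minus strand. S100a13 (chr3:90514435-90524581) is read in the opposite direction, with 42 bases between the 2 genes. S100a4 (chr3:90603771-90606045), S100a6 (chr3:90612882-90624181) and S100a8 (chr3:90668978-90670035) follow on the plus strand. S100a11 (chr3:93520488-93526287) and S100a10 (chr3:93555080-93564643) lie apart from the others, 2824766 bases beyond S100a9 with 102 annotated genes between. A processed pseudogene, S100a11-ps, lies on chromosome 12, and how reads that match both copies were counted is not given in the sources used here, so S100a11 levels carry that uncertainty.

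Promoter stretches from the RefSeq table for GRCm38.p6 are shown for the granulocyte pair, whose levels were the highest measured, and for S100a4 and S100a11, 2 of the members that were low in microglia-like cells and higher in most other classes. The table held 7 of the 8 members, and S100a10 was not among them. Each stretch is written 5′ to 3′ in the direction of the gene and ends at the last base before the start of the gene in both annotations, and capitals mark letters of a searched motif. The S100a8 stretch is chr3:90668821-90668977 (plus strand), the S100a9 stretch chr3:90695722-90695971 (minus strand), the S100a4 stretch chr3:90603620-90603769 (plus strand) and the S100a11 stretch chr3:93520338-93520487 (plus strand).
S100a8: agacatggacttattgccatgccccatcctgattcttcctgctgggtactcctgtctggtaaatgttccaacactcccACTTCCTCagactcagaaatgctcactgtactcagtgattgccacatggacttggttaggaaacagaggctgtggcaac
S100a9: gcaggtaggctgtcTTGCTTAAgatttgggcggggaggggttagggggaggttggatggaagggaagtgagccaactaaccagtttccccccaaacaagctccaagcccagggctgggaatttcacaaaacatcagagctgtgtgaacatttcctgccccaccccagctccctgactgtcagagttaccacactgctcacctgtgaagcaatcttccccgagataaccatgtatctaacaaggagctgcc
S100a4: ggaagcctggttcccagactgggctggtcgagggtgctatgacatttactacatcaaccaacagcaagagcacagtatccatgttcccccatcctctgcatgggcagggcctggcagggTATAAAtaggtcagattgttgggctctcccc
S100a11: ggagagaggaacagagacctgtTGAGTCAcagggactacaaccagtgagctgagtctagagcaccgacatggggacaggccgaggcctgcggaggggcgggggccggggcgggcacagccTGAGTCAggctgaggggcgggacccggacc
Both strands of the 250 bases before the RefSeq start were searched for 4 motifs. TTGCNNAA, bound by C/EBP factors, was in S100a9 and in 9.56% of all 32851 promoter entries. GAGGAAGT, bound by PU.1, was in S100a8 (as ACTTCCTC on the gene's own strand) and in 2.44% of entries. TGANTCA, bound by AP-1, occurred at 2 places before S100a11 and in 6.75% of entries. The TATA box TATAAA lay before S100a4 and S100a8, and in 12.4% of entries. In S100a8 it sits 30 to 25 bases before the RefSeq start, which GENCODE places inside the first exon, so that part is not printed. These matches describe letters in a window, not bound sites.

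The 2135 cells used (1261, 594 and 280 in libraries 1, 2 and 3) were grouped by expression with all S100 genes left out, and groups were named by marker lists. Library 1 was 86.2% microglia-like cells, library 2 10.9% and library 3 0.714%. The other classes were neutrophil-like, border-associated macrophage-like, classical and non-classical monocyte-like, conventional and migratory dendritic cell-like, NK cell-like and cycling cells, and 16 pairings of class and library had at least 20 cells. Each neutrophil marker (14 of 14) and microglia marker (10 of 10) was present in the class of that name. Of the 129 neutrophil-like cells 88 carried that name by their own markers, 18 were microglia-like by theirs and 12 had no name. The conventional dendritic cell-like class was mixed: 4 of its 12 markers passed, 92 of its 297 cells carried that name by their own markers, and 30 were glial or vascular by theirs, cells that a Cd11b sort should leave out. Of the 63 border-associated macrophage-like cells 8 carried that name by their own markers, although the group as a whole passed 9 of 10 markers. The 62 cycling cells were set apart by cell cycle genes, a rule added after the groups were seen, and hold cells of several kinds.

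Members made up 0.242% of UMIs (unique transcript counts) in library 1, 2.11% in library 2 and 2.00% in library 3. Levels below are CPM, the UMIs of a gene in each 1000000 UMIs summed over the cells of a class and library. Counts come from transcript ends and do not scale with transcript length, so levels of different genes can be set side by side. Fewer cells of a type and less RNA per cell cannot be told apart in values over all cells of a library, while values within a class are per UMI of that class.

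**Figure D1:**
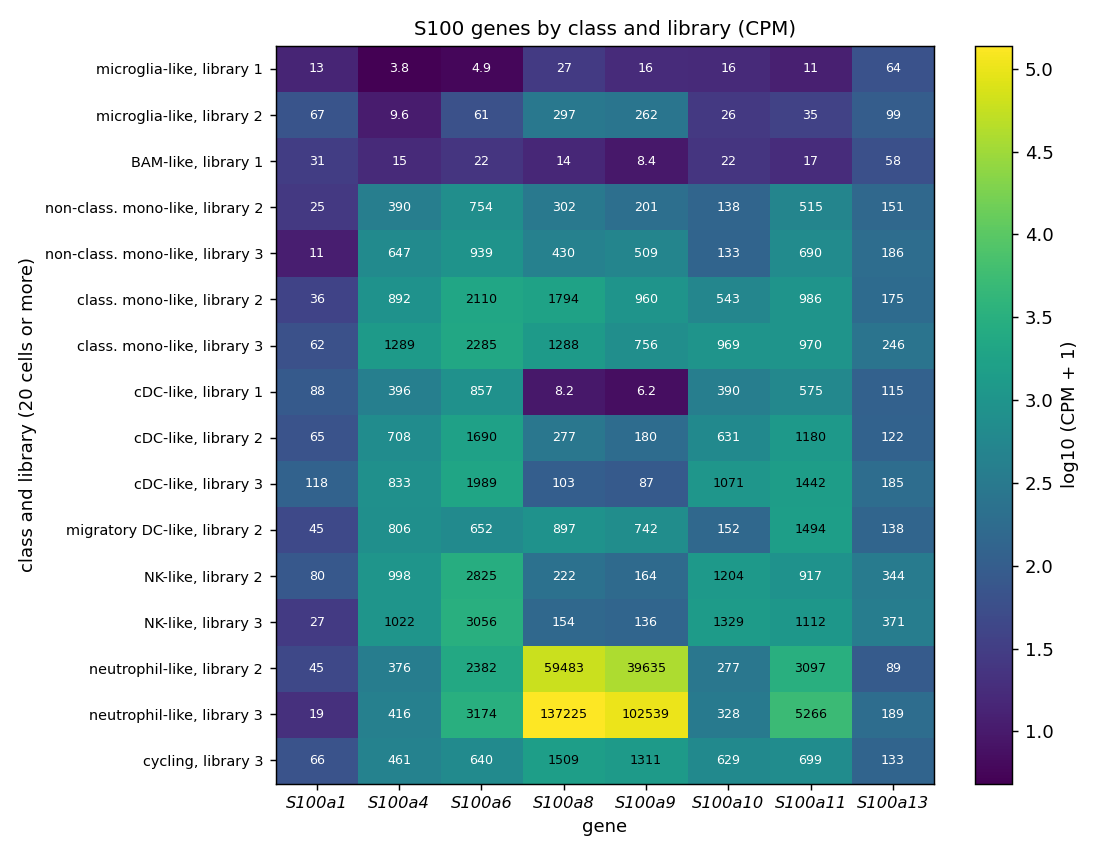
CPM of the 8 members (columns) in each class and library with at least 20 cells (rows), coloured on a log10 scale with the value printed in each cell. Microglia-like and border-associated macrophage-like rows are dark for S100a4, S100a6, S100a10 and S100a11, and S100a8 and S100a9 stand above all else in neutrophil-like cells.

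Among pairings with at least 20 cells, S100a4, S100a6, S100a10 and S100a11 were at 132.7 CPM or above in every monocyte-like, dendritic cell-like, NK cell-like and neutrophil-like class, and at 60.7 or below in microglia-like cells. S100a4, which binds myosin and is linked to cell migration, was at 3.84 CPM in microglia-like cells of library 1 (95% interval 2.31 to 6.0) and at 9.59 in library 2 (1.98 to 28.0). In classical monocyte-like cells it was at 892 in library 2 and 1289 in library 3, and in NK cell-like cells at 998 and 1022. S100a6 was at 4.85 in microglia-like cells of library 1 (3.11 to 7.22) and 60.7 in library 2 (36.6 to 94.8), against 2110 and 2285 in classical monocyte-like cells and 2825 and 3056 in NK cell-like cells of libraries 2 and 3. For all 4 genes the intervals of microglia-like cells lay below those of each monocyte, dendritic cell, NK cell and neutrophil class with at least 20 cells. Smaller pairings did not all follow: in the 14 neutrophil-like cells of library 1 S100a10 was at 15.2, from 1 UMI, and S100a4 at 30.4.

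S100a10, the Anxa2 partner, was at 15.6 in microglia-like cells of library 1 and 25.6 in library 2. NK cell-like cells held the most, 1204 in library 2 and 1329 in library 3, and the class was the highest for S100a10 in both libraries. In library 3 its interval (1123 to 1562) overlapped that of conventional dendritic cell-like cells (983 to 1165). S100a11, which binds Anxa1, was at 10.7 and 35.2 in microglia-like cells. Its highest class was neutrophil-like, at 3097 in library 2 and 5266 in library 3. Border-associated macrophage-like cells, measured in library 1 only, had S100a4 at 15.3, S100a6 at 22.3, S100a10 at 22.3 and S100a11 at 16.7. By their own markers 55 of these 63 cells were microglia-like, and microglia markers summed to 21043 CPM in the class against 4319 for its own markers. The part of microglia in these levels was not tested. Conventional dendritic cell-like cells of the same library held 396, 857, 390 and 575 of these 4 genes. In library 2 that class held 708, 1690, 631 and 1180. The part of the library in these levels was not tested.

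**Figure D2:**
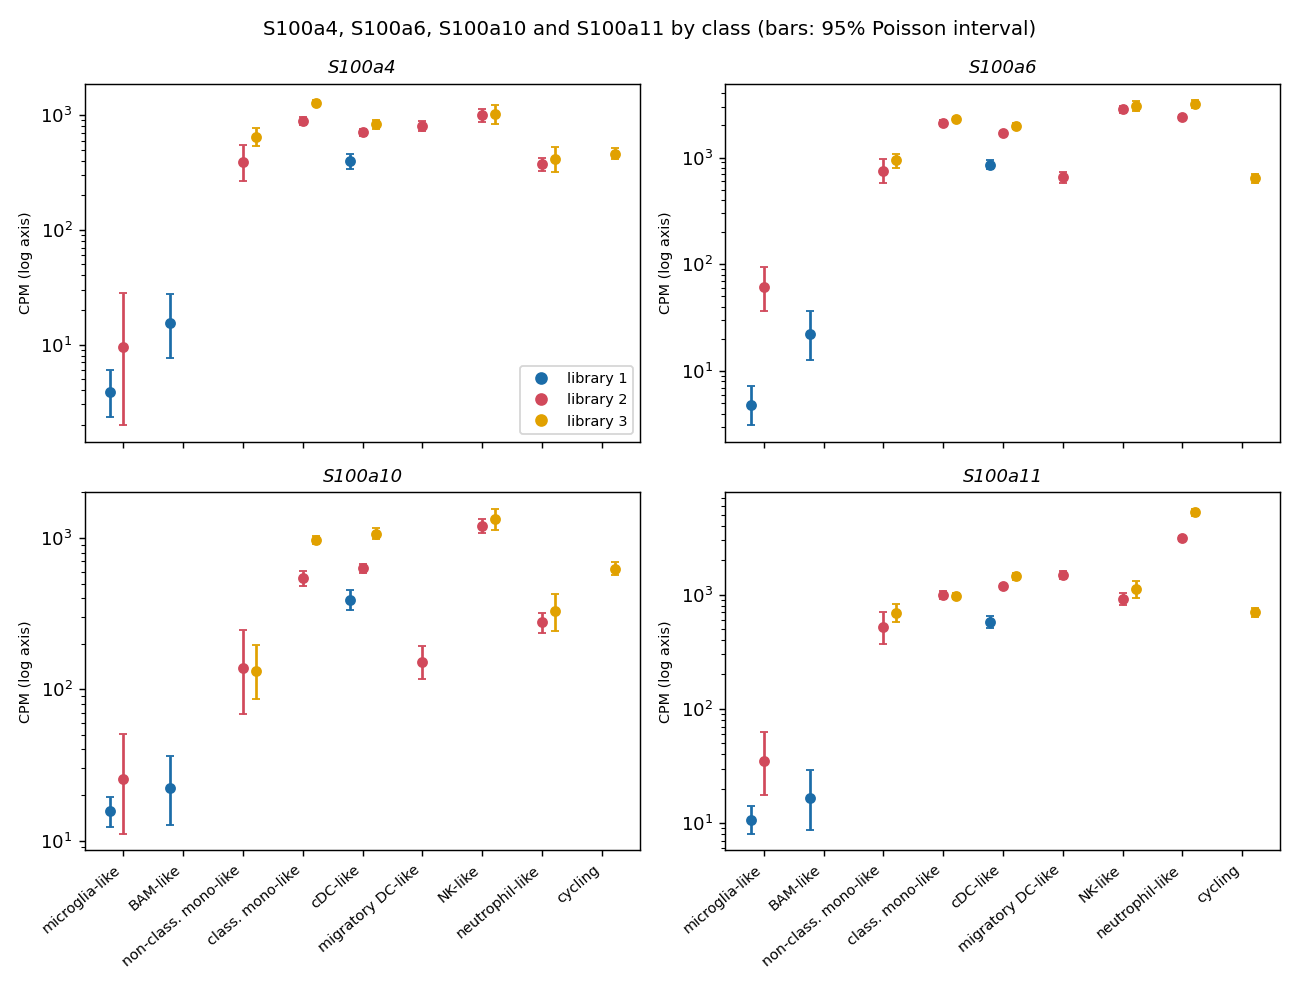
CPM (log axis) of S100a4, S100a6, S100a10 and S100a11 by class, 1 point for each library with at least 20 cells of the class, bars giving the 95% Poisson interval. Points of microglia-like and border-associated macrophage-like cells lie at 60.7 or below, and all others at 132.7 or above.

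Shares of cells with a UMI were set beside the levels. A UMI of S100a4 was found in 3 of the 1020 microglia-like cells of library 1 once each cell was thinned to 2000 UMIs, or 0.294% (0.0607 to 0.857%, exact binomial), and in 1.56% of all 1087 before thinning. For S100a6 it was 0.588% thinned and 1.20% unthinned. In classical monocyte-like cells of library 3 the thinned shares were 92.1% for S100a4 and 94.7% for S100a6, and in NK cell-like cells of library 2 S100a10 reached 89.6%. The classes differ in depth, with a median of 3403 UMIs per microglia-like cell of library 1 and 3092 per NK cell-like cell of library 2, so these 2 classes were read at similar depth.

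In the order of classes, many neighbours could not be told apart by counting error. For S100a4 in library 2 the intervals of NK cell-like, classical monocyte-like, migratory and conventional dendritic cell-like cells each overlapped the next, above non-classical monocyte-like (390 CPM) and neutrophil-like cells (376 CPM). For S100a6 in that library NK cell-like, neutrophil-like, classical monocyte-like and conventional dendritic cell-like cells had intervals apart from each other (2825, 2382, 2110 and 1690 CPM), and in library 3 neutrophil-like and NK cell-like cells overlapped. S100a10 and S100a11 were each led by 1 class in library 2 whose interval lay apart from the next, NK cell-like at 1204 CPM before conventional dendritic cell-like at 631 and neutrophil-like at 3097 before migratory dendritic cell-like at 1494. For S100a10 in library 2 neutrophil-like cells stood at rank 4 of 7 classes, at 277 CPM, and for S100a11 at rank 1.

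Within library 2 each class was set against its microglia-like cells, counting genes with at least 50 UMIs in both sums together and at least 2-fold higher. Classical monocyte-like cells had 6 members past 2-fold (S100a4, S100a6, S100a8, S100a9, S100a10 and S100a11), where 20.5% of all genes passed. Neutrophil-like cells and migratory dendritic cell-like cells had the same 6, against 16.4% and 22.1% of all genes. NK cell-like cells had 5 (S100a4, S100a6, S100a10, S100a11 and S100a13) against 23.1%. Conventional dendritic cell-like cells had S100a4, S100a6, S100a10 and S100a11 against 18.1%. In the 24 non-classical monocyte-like cells S100a6 and S100a11 passed, against 15.6% of genes, and S100a4 was 40.6-fold higher with too few UMIs to count. The sizes were large for the 4 genes: S100a4 was 93.1-fold higher in classical monocyte-like cells (31.7 to 453) and S100a11 was 88.1-fold higher in neutrophil-like cells (49.1 to 177).

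The same held in library 1, the library with most microglia. Conventional dendritic cell-like cells there had 5 members past 2-fold over microglia-like cells, against 5.90% of all genes. S100a4 was 103-fold higher (64.3 to 175), S100a6 177-fold (117 to 279), S100a11 53.7-fold, S100a10 25.1-fold and S100a1 6.94-fold. S100a8 and S100a9 went the other way, at 0.30 and 0.39 of the microglia-like level, from 4 and 3 UMIs. These 2 of 8 members are near the 26.2% of all genes that were at least 2-fold lower. For S100a9 the intervals of the 2 classes overlapped (1.27 to 18.0 and 12.5 to 19.7). Microglia markers were present in that class at a summed 5337 CPM, against 35065 in microglia-like cells, and their part in these values was not tested. Among members with enough UMIs, border-associated macrophage-like cells had only S100a1 past 2-fold, at 2.41-fold, where 4.03% of all genes passed. S100a4 and S100a6 had too few UMIs to count. They were at 15.3 (7.65 to 27.4) and 22.3 (12.7 to 36.2), against 3.84 (2.31 to 6.0) and 4.85 (3.11 to 7.22) in microglia-like cells.

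S100a13, whose protein helps to export Fgf1 and Il1a, was the member with the most even distribution. It was at 64.1 in microglia-like cells of library 1 and 99.1 in library 2, and was the highest of the 8 members in microglia-like cells of library 1. NK cell-like cells had the most, 344 in library 2 (277 to 423) and 371 in library 3 (266 to 503), and those 2 values overlap. Classical monocyte-like cells followed with 175 and 246, and in library 3 their interval (217 to 279) overlapped that of NK cell-like cells. Neutrophil-like cells of library 2 had 89.1, not distinguishable from microglia-like cells of that library. Over the 16 pairings of class and library it ran from 58.5 to 371, where S100a4 ran from 3.84 to 1289. Il1a itself was at 177 and 409 in microglia-like cells and had no UMI in NK cell-like cells of library 2, which allows a level of up to 11.5 (3 counts). Fgf1 was at 0.202 in microglia-like cells of library 1.

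S100a1, known for its role in heart and skeletal muscle, lay between 10.6 and 118 in the 16 pairings. Conventional dendritic cell-like cells were highest in libraries 1 and 3, at 88.3 and 118, and at 64.5 in library 2. Part of it came with the 30 cells named glial or vascular by their own markers, in which S100a1 was at 287 (203 to 395) against 38.8 in the remaining cells. Without them the class held 74.8, 48.2 and 121 in libraries 1, 2 and 3. In library 3, 1 cell carried 24 of the 60 S100a1 UMIs of the class. The highest class for S100a1 changed under 7 of the alternatives tried, so no class is named as its main source.

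Monocyte and dendritic cell classes were next set side by side. The class named non-classical monocyte-like, after the patrolling subset, was mixed: by their own markers 33 of its 74 cells were non-classical and 32 classical monocyte-like. Its classical monocyte markers summed to 5002 CPM in library 2 and 6814 in library 3, against 5655 and 5626 for its own, and their part in the values that follow was not tested. S100a10 was at 138 against 543 in classical monocyte-like cells of library 2 and 133 against 969 in library 3, and S100a6 at 754 against 2110 and 939 against 2285. In library 2, 5 members were at least 2-fold lower in the non-classical monocyte-like class (S100a4, S100a6, S100a8, S100a9 and S100a10), where 14.7% of all genes were. In library 3, 4 were (S100a1, S100a6, S100a8 and S100a10), against 13.3%. S100a6, S100a8 and S100a10 were thus lower by this measure in both libraries, and S100a4 was at 0.50 of the classical level in library 3. In classical monocyte-like cells S100a8 rested on a few cells, as given below.

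In migratory dendritic cell-like cells, which carry antigen to lymph nodes, S100a11 was at 1494 and S100a10 at 152. In the conventional dendritic cell-like cells of the same library they were at 1180 and 631. S100a10 (0.24) and S100a6 (0.39) were the members at least 2-fold lower, and 2 of 8 is near the 21.1% of all genes that were. S100a8 (897 against 277) and S100a9 (742 against 180) were at least 2-fold higher, where 10.2% of all genes were. Much of the S100a8 count of the migratory class came from a single cell. The thinned shares of cells with an S100a8 UMI were nearly equal in both classes, as given below. Cycling cells of library 3 had S100a4 at 461 and S100a6 at 640, which were 0.36 and 0.28 of the classical monocyte-like level, and no other member was 2-fold lower, where 7.64% of all genes were.

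The NK cell-like class split into 2 at a finer grouping, and S100a4 differed sharply between them. A cluster of 47 cells was led by Klrg1 and Gzma, genes of mature cytotoxic NK cells, and one of 78 cells by Xcl1 and Cxcr6, which mark tissue-resident innate lymphocytes. S100a4 was at 48 in the Klrg1-high cells of library 2 (13 to 122) and 1445 in the Klrg1-low cells (1273 to 1633). Library 3 gave 66 (8.0 to 238) and 1383 (1137 to 1665). With cells thinned, 3 of 22 Klrg1-high cells and 41 of 45 Klrg1-low cells of library 2 had an S100a4 UMI, and 1 of 9 and 20 of 22 in library 3. S100a6 went the same way, at 979 against 3693 in library 2 and 1649 against 3587 in library 3, as did S100a11, at 502 against 1113 and 297 against 1420. These 3 genes were at least 2-fold lower in Klrg1-high cells in both libraries, where 5.76% of all genes were in library 2 and 6.64% in library 3.

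S100a10 did not follow them. It was at 1350 in Klrg1-high and 1136 in Klrg1-low cells of library 2, and at 2078 and 1046 in library 3, a ratio of 1.99 (1.41 to 2.79). S100a13 was at 418 and 309 in library 2 and at 495 and 324 in library 3, and the intervals of its ratio included 1 in both. The 10 Klrg1-high cells of library 3 are few, but both libraries put S100a4, S100a6 and S100a11 on the same side.

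S100a8 and S100a9 were found mostly in neutrophil-like cells. These cells held 93.3% of the pair's UMIs, and the pair made up 9.91% of all UMIs of the class in library 2 and 24.0% in library 3. S100a8 was at 59483 in library 2 and 137225 in library 3, and S100a9 at 39635 and 102539. In single cells of library 2 the share of S100a8 ranged from 0.0416% to 26.7% of UMIs with a median of 4.20%, and in library 3 from 0.0531% to 29.7% with a median of 21.7%. The pair kept a nearly fixed proportion, with a ratio of S100a8 to S100a9 UMIs of 1.5 in library 2 (1.48 to 1.53) and 1.34 in library 3 (1.31 to 1.37).

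**Figure D3:**
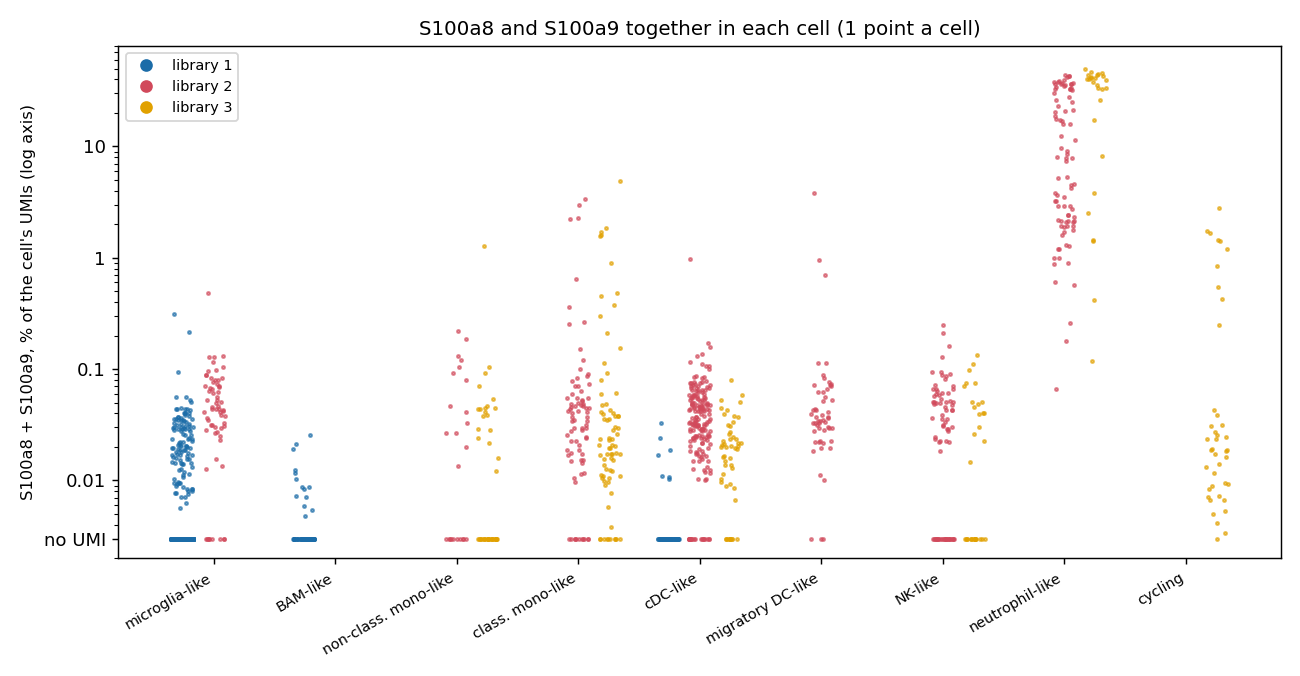
S100a8 and S100a9 together as percent of a cell's UMIs (log axis, cells without a UMI drawn on the bottom line), 1 point for each cell, by class and library. Neutrophil-like cells spread over more than 2 orders of magnitude, and a few cells of the classical monocyte-like, migratory dendritic cell-like and cycling classes exceed 1%.

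The pair differed between finer clusters of neutrophil-like cells. At the finer grouping 63 cells were led by Ltf, Ngp and Camp, secondary granule genes made in the marrow, and 68 by Cxcr2 and Il1b, genes of mature neutrophils. The part of cells not named neutrophil-like by their own markers in the values that follow was not tested. The pair made up 31.5% of UMIs in Ltf-high cells of library 2 and 35.2% in library 3, against 2.85% and 2.22% in Ltf-low cells. S100a8 was at 188926 in Ltf-high and 17076 in Ltf-low cells of library 2, an 11.1-fold ratio, and at 201966 and 11977 in library 3. S100a4 and S100a10 went the other way: S100a4 was at 71 against 474 and S100a10 at 32 against 348 in library 2, and at 172 against 887 and 57 against 850 in library 3. They were the members at least 2-fold lower in Ltf-high cells of library 2, 2 of 8, where 41.8% of all genes were, so the count is no result about the members. Taking the pair out of the total, since it fills a large part of it, left S100a4 at 104 against 488 and S100a10 at 47 against 358 in library 2. S100a6 and S100a11 were higher in Ltf-high cells, at 3941 against 1923 and 6025 against 2174 in library 2. In library 3, with 7 Ltf-low cells, S100a6 was at 3268 against 2994 with overlapping intervals, and S100a11 at 6067 against 3715. Without the pair in the total they were at 5044 against 3062 and 9366 against 3799 in library 3. S100a6 was thus higher in Ltf-high cells of that library by this total.

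**Figure D4:**
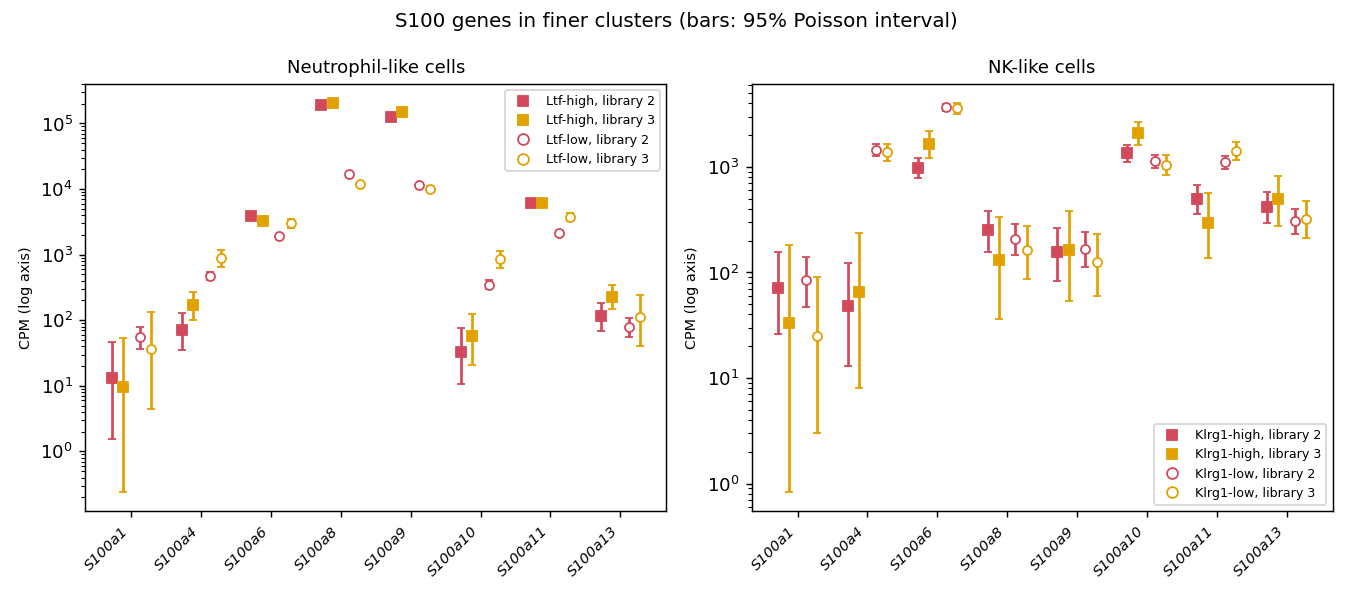
CPM (log axis) of the 8 members in the finer clusters of neutrophil-like cells (left) and NK cell-like cells (right), libraries 2 and 3, bars giving the 95% Poisson interval. S100a4 and S100a10 are higher in Ltf-low neutrophil-like cells, and S100a4, S100a6 and S100a11 are higher in Klrg1-low NK cell-like cells.

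Between the libraries neutrophil-like cells differed in S100a8 (2.31-fold higher in library 3), S100a9 (2.59-fold) and S100a13 (2.12-fold), the 3 members past 2-fold where 3.47% of all genes were. In library 2, 36 of 90 cells of the finer clusters were Ltf-high (exact binomial interval 29.8 to 50.9%), and 20 of 27 in library 3 (53.7 to 88.9%). Within Ltf-high cells S100a8 was at 188926 and 201966 in libraries 2 and 3, S100a9 at 126137 and 150278 and S100a13 at 116 and 229, the last with overlapping intervals. Within Ltf-low cells S100a8 was lower in library 3, at 11977 (11073 to 12936, 7 cells) against 17076 (16713 to 17444). In the 14 neutrophil-like cells of library 1 S100a8 was at 111833 and S100a9 at 73637. Over all libraries S100a8 was at 77988 in the class, and this value moved between 51610 and 156429 with the filters on cells.

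Outside neutrophil-like cells, among classes with at least 20 cells, S100a8 was between 222 and 1794 in library 2, between 103 and 1509 in library 3, and between 8.22 and 27.1 in library 1. In library 2 the thinned share of cells with an S100a8 UMI was 37.3% in microglia-like cells (22 of 59), 37.2% in conventional dendritic cell-like, 37.0% in migratory dendritic cell-like and 29.9% in NK cell-like cells (19.3 to 42.3%). The interval of NK cell-like cells included the microglia-like share. Median depths were 3092 UMIs in NK cell-like and 3761 in microglia-like cells. Whether the microglia-like share is expression was not tested. By level, S100a9 in microglia-like cells of library 2, at 262 (208.4 to 325), overlapped NK cell-like cells (119 to 221) and lay above conventional dendritic cell-like cells, at 180 (158.9 to 203.0). In library 1, where neutrophil-like cells were 1.11% of cells against 14.8% in library 2, the share was 3.33% in microglia-like and 1.61% in conventional dendritic cell-like cells. Unthinned shares were 67.7% and 6.81% in microglia-like cells of libraries 2 and 1.

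Other neutrophil transcripts came with the pair. Retnlg, Ngp, Camp, Ltf, Lcn2 and Mmp8 together gave 30.2 UMIs for each 100 of the pair in neutrophil-like cells of library 2 (29.7 to 30.7). The value was 26.9 in microglia-like (19.0 to 37.2), 26.3 in conventional dendritic cell-like (22.2 to 31.1) and 28.7 in NK cell-like cells of that library (18.3 to 43.8). In those 3 classes of library 2 the intervals included the neutrophil-like value. Microglia-like cells of library 1 had 22.6 (16.2 to 31.1), an interval without the 31.5 of that library's neutrophil-like cells (30.3 to 32.6). Conventional dendritic cell-like cells of library 3 had 28.1 (17.6 to 43.5), beside 36.0 in neutrophil-like cells. No profile of free RNA was measured, and its part in these counts was not tested. Classical monocyte-like cells had less of the other 6 genes: 17.2 in library 2 (15.1 to 19.6) and 18.2 in library 3 (16.3 to 20.3), a library whose neutrophil-like cells had 36.0. Migratory dendritic cell-like cells of library 2 had 13.6 (10.9 to 16.9) and cycling cells of library 3 14.7 (12.9 to 16.7). Non-classical monocyte-like cells had 12.5 in library 2 (3.85 to 31.7) and 10.2 in library 3 (5.89 to 16.5). NK cell-like cells of library 3 had 3.12, from 1 UMI against 32.

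**Figure D5:**
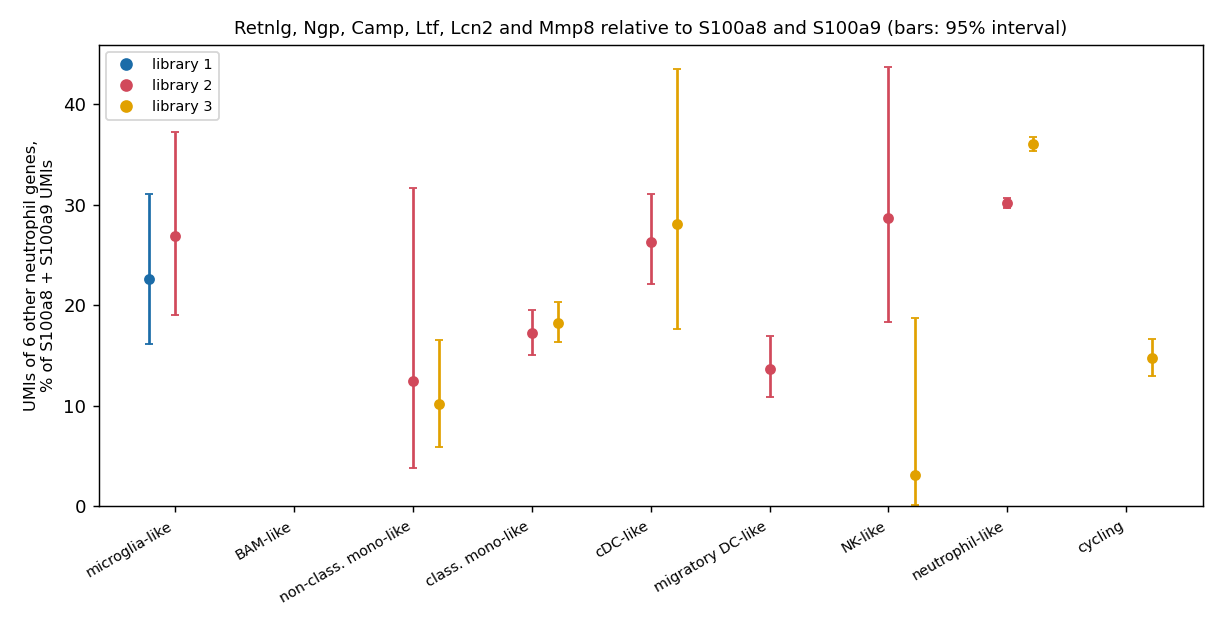
UMIs of 6 other neutrophil genes as percent of S100a8 and S100a9 UMIs, by class and library with at least 20 cells and 20 UMIs of the pair, bars giving the 95% interval. In library 2, microglia-like, conventional dendritic cell-like and NK cell-like cells lie near the neutrophil-like value of 30.2. Microglia-like cells of library 1 are at 22.6 and conventional dendritic cell-like cells of library 3 at 28.1. Classical and non-classical monocyte-like, migratory dendritic cell-like and library 3 cycling cells lie lower still.

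In classical monocyte-like cells, which are known to carry S100a8 and S100a9 in blood, the pair rested on a few cells. S100a8 was at 1794 in library 2 and 1288 in library 3, but the 5 cells with most S100a8 held 86.2% and 63.4% of it. The median cell had 0.0185% and 0.0128% of its UMIs as S100a8, beside 0.0253% in microglia-like cells of library 2. Thinned shares were 43.8% (32.7 to 55.3%) in library 2, overlapping the NK cell-like share, and 30.3% in library 3 beside 25.8% in NK cell-like cells. Migratory dendritic cell-like cells were alike in this, with 1 cell holding 44.6% of the S100a8 UMIs. In cycling cells of library 3 the 5 highest cells held 75.2%. Doublet calls were few (9 of 2144 cells), and a mixture with a neutrophil in those droplets was not tested.

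Within microglia-like cells 4 members were at least 2-fold higher in library 2 than in library 1, where 2.49% of all genes were. S100a9 was 16.6-fold higher and S100a8 11-fold (8.33 to 14.4), S100a1 5.27-fold (3.05 to 8.76) and S100a11 3.28-fold (1.55 to 6.36). S100a6 was at 4.85 and 60.7, from 24 and 19 UMIs, too few for the count. S100a10 and S100a13 differed by 1.64-fold and 1.55-fold. Neutrophil-like cells were 14.8% of library 2 and 1.11% of library 1, and the part of free RNA in the S100a8 and S100a9 values was not tested. The make-up of the class also differed: its 3 clusters held 537, 347 and 203 cells in library 1 and 36, 3 and 26 in library 2. Microglia markers summed to 35065 CPM in library 1 and 19138 in library 2, and the part of either difference in these values was not tested. S100a6 and S100a11 were also abundant in the other cells of library 2, at 1639 and 1369 over all cells against 147 and 117 in library 1, and the part of free RNA in their microglia-like levels was not tested. S100a1 was at 54.6 over all cells of library 2, within the interval of its 67.1 in microglia-like cells (41.5 to 102.6). That value came from 21 UMIs, 13 of them in 5 of the 65 cells.

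Monocyte-like and NK cell-like classes were compared between libraries 3 and 2. In classical monocyte-like cells no member differed by 2-fold in either direction, where 9.54% of all genes did. The farthest was S100a10, at 1.78-fold. Intervals of libraries 3 and 2 still lay apart for S100a4, S100a8, S100a9, S100a10 and S100a13. In NK cell-like cells none differed by 2-fold among the 7 with enough UMIs, where 2.85% of all genes did. The ratios of those 7 ran from 0.69 to 1.21. Both counts are near those shares, so neither is a result about the members. In non-classical monocyte-like cells S100a9 was 2.53-fold higher in library 3, where 3.29% of genes were. That value rested on 1 cell with 80.2% of the S100a9 UMIs.

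Conventional dendritic cell-like cells differed more. In library 2, S100a8 (33.7-fold), S100a9 (29.2-fold) and S100a11 (2.05-fold) were past 2-fold over library 1, against 3.44% of genes. In library 3, S100a4 (2.10-fold), S100a6 (2.32-fold), S100a8 (12.5-fold), S100a10 (2.74-fold) and S100a11 (2.51-fold) were, against 4.58%. S100a9 had too few UMIs to count there, at 86.8 (63.1 to 117) in library 3 and 6.16 (1.27 to 18.0) in library 1. These comparisons share library 1, whose class held cells of other kinds: 8 of its 64 cells carried the dendritic name by their own markers. In those 8 cells S100a4 was at 1112 and S100a6 at 1630, against 843 and 1863 in the 69 such cells of library 2. The 15 such cells of library 3 had 1121 and 2466. S100a10 was at 647 (480 to 853) in the 8 cells of library 1 and 1075 (903 to 1269) in those of library 3. S100a11 was at 828 (637 to 1057) and 2049 (1809 to 2311), so it stayed higher in library 3 among cells so named. Between libraries 3 and 2, which leaves library 1 out, S100a8 (103 against 277) and S100a9 (86.8 against 180) were at least 2-fold lower in library 3, where 4.10% of genes were, and the other 6 members were within 2-fold.

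Partners of the S100 proteins were counted from a list of 28 genes in 5 roles. Annexins did not all follow the members. Anxa2 was at 3.23 and 44.7 in microglia-like cells of libraries 1 and 2. It was at 560 in neutrophil-like, 597 in classical monocyte-like and 722 in NK cell-like cells of library 2. Anxa1 was at 1.21 and 3.20 in microglia-like cells and 1060 in neutrophil-like cells of library 2. Of the 5 annexins 3 were past 2-fold higher in classical monocyte-like cells than in microglia-like cells of library 2 (20.5% of all genes), 3 in NK cell-like cells (23.1%) and 2 in neutrophil-like cells (16.4%). Anxa5 in NK cell-like cells was at 0.50 of the microglia-like level. Ahnak, a scaffold bound by the S100a10 and Anxa2 complex, was at 1.21 and 3.20 in microglia-like cells and at 203 in classical monocyte-like cells. Myh9, the myosin bound by S100a4, was at 38.3 in microglia-like and 76.4 in classical monocyte-like cells.

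Among receptors, Emb, a calprotectin receptor, was at 9.59 in microglia-like cells and 385 in classical monocyte-like cells of library 2, while Bsg, a related receptor, was at 585 and 186 and Cd33 at 211 and 33.0. Of the 6 receptors 1 was past 2-fold higher in classical monocyte-like cells, near the 20.5% of all genes, and 2 were lower, where 14.7% of all genes were. Tlr4 was at 18.8 in microglia-like cells of library 1 and had no UMI in the classical monocyte-like cells of library 2, which allows up to 5.21. Ager was near 0 throughout, at 0.606 in microglia-like cells of library 1. Among calcium-binding proteins outside the family, Aif1, the microglial marker also called Iba1, was higher in microglia-like cells, at 1110 against 389 in classical monocyte-like cells.

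Other genes of the family were rare. S100b had 82 UMIs in all cells and S100a16 had 68, and the 30 glial or vascular cells held 62.2% of the first and 79.4% of the second. S100a14 had 1 UMI, S100a3 had 3, and S100a5 and S100a7a had 2 each. No UMI of S100a2, S100g or S100z was found, which allows each up to 0.228 CPM.

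Over the 16 pairings of class and library, Pearson's r of log2(CPM + 1) describes which patterns were most alike. These pairings share libraries and sequencing depth, and r is given with no test. S100a8 and S100a9 had r = 0.997, and the nearest other genes to both were Lcn2, Retnlg and Wfdc21. S100a6 was nearest to Anxa2 (0.980), Cd52 and Fxyd5, S100a4 to Anxa2 (0.957), Actr3 and Pfkp, and S100a11 to Anxa2 (0.951), Anxa1 and Srgn. S100a10 was nearest to Itgb7 (0.949), Sh3bgrl3 and Ptpn7, and S100a13 to Atp5h (0.919), Psmb3 and Myl12a. S100a1 was nearest to Spp1 (0.840), Gtf2f2 and Rpl36a. The neighbours S100a1 and S100a13, whose starts face away from each other, had r = 0.142.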

How the data were processed

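The deposited values are UMI counts per gene and cell in 1 matrix that pools all libraries, made with Cell Ranger 2.0.1 on mm10, per the submitters' processing notes. Reads were normalised to a common depth before deposit, per the labels' protocols, so UMI totals between libraries are not raw yields. Other steps of the authors are not given in the sources used here. Sequences come from RefSeq (GRCm38.p6) and gene ranges from GENCODE vM21.

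Cells with at least 500 genes and at most 10% mitochondrial counts were kept (2144 of 2149), and 9 Scrublet calls, 0.42% of cells and a low yield, were removed. The 2135 cells left hold 6401568, 4007902 and 2721071 UMIs in libraries 1, 2 and 3. Clustering used scanpy 1.11.5 with 2000 variable genes, 30 components, 15 neighbours and Leiden resolution 0.5, and a finer grouping used resolution 1. A cluster was named from at least 3 markers, each in at least 0.3 of its cells and at 2 times the median cluster. Clusters with 5 or more cell cycle genes among their 10 leading genes were called cycling. The 7 mast cell or basophil-like cells entered no comparison.

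Counts were summed by class and library and given as CPM with exact Poisson intervals. Ratios carry exact conditional intervals, and shares exact Clopper-Pearson intervals. For shares each cell was thinned to 2000 UMIs, which left out 106 cells, 73 of them microglia-like. UMIs without replicate libraries give counting error only. The fold count was tested on simulated data, and the thinning was checked on the measured cells.

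The members, the lists and the tests were chosen with earlier results of these data known. The genes named are the members, related genes with the largest CPM ratios and every S100 gene, the 3 genes nearest to each member by Pearson's r, and marker genes where they check a class. A related gene that this rule would name is not reported here. Related genes that explain a member's partner were named after their values were seen, as were the finer clusters and their leading genes. Alternatives were other cell filters, doublets kept, Leiden resolution 1, S100 genes allowed in clustering, cells named one by one, each library left out, mean of per-cell CPM, 1.5-fold, no minimum of UMIs and other thinning. Cells named alike by both rules, the class without glial or vascular cells and totals without S100a8 and S100a9 were added after the data were seen.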

Additional observations from a re-analysis of the deposited data

Results flagged for a closer look

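Mast cell or basophil-like cells were too few (7 over the 3 libraries) for any comparison, but carried members above the 3 counts set as a floor. S100a10 had 36 UMIs and S100a11 had 32, each found in 7 of 7 cells, which is 1316 and 1170 CPM of 27348 UMIs. S100a13 had 4 UMIs in 3 cells. S100a4 and S100a6 had none, which allows up to 109.7 CPM each. S100a8 had 3 UMIs and S100a9 1, at the floor or below it.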

How the results depend on the processing

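All 8 members had their highest pooled class outside microglia-like cells under each of the 11 alternatives run for that count. The named class itself moved for S100a1 under 7 of them, for S100a6 (NK cell-like to neutrophil-like) under 5 and for S100a4 (classical monocyte-like to NK cell-like) under 2. The number of members at least 2-fold higher in microglia-like cells of library 2 than of library 1 was 4, ran from 3 to 6 under the other alternatives and was 7 when cells were named one by one. S100a1, S100a8 and S100a9 were among them under each alternative run. No library could be left out of that count, which needs both. The pooled level in the highest class stayed within 1.5 times for S100a4, S100a6, S100a10, S100a11 and S100a13 under each alternative run. S100a8 in neutrophil-like cells moved from 77988 CPM to between 51610 (at least 1000 genes per cell) and 156429 (at most 5% mitochondrial counts), and S100a9 from 53964 to between 35063 and 108589 under the same filters. The share of microglia-like cells with an S100a8 UMI was 5.18% over all libraries and 36.1% without library 1. For S100a6 it was 1.20% and 11.5%. With at least 2 UMIs asked for, 1.20% kept S100a13 and 0.833% S100a9, the 2 highest shares. Comparisons of finer clusters were not rerun under the alternatives. No paired analysis was possible because no library could be tied to a label and each group has 1 sample. Depth limits S100a1 most, with 542 UMIs in all cells used.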
